A study of Mus musculus with 12 samples.

Results

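The immunoglobulin heavy-chain variable (Ighv) segments were read here by every probe whose name begins with IGHV or IGH-V, which gave 61 of the 45281 probes on an Illumina mouse expression BeadChip. Of these, 53 carry a family number after IGHV and fall into 12 families, and 8 carry older IGH-V names. The material was premalignant pre-B cells, sorted from fresh tissue of C57BL/6 mice, and every sample in both groups carried the Eµ-Myc transgene, in which the immunoglobulin heavy-chain enhancer drives Myc in the B lineage before lymphoma appears. The Smchd1 null group (6 samples) carried a gene-trap allele of Smchd1 on both chromosomes, and the Smchd1 wildtype group (6 samples) had no trap allele according to its genotype label. Each sample was hybridised to 1 array on either of 2 BeadChips, and each BeadChip held 3 arrays of each genotype. Age and sex of the animals, and whether a sample came from 1 mouse or from pooled mice, are not given in the sources used here.

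A heavy-chain gene is assembled in each developing B cell by joining 1 variable (V) segment to a diversity (D) and a joining (J) segment that were joined first, with the RAG recombinase cutting the DNA. A pre-B cell that has succeeded transcribes its chosen V segment together with the mu constant region, so in a bulk sample the V probes read a mixture of clones, each using its own V. In the mouse the V segments form a long array on chromosome 12. Families close to the D segments (2 and 5) are called proximal, and use of the distant families 1 and 8 is known to need contraction of the locus by proteins such as Pax5, Yy1 and Ikzf1 and signalling through the interleukin 7 receptor. In bulk RNA, fewer cells that use a segment and less RNA of it per cell cannot be told apart.

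In the RefSeq gene table for the assembly GRCm38.p6, used only for names and order, 183 Ighv segments were counted along chromosome 12 from the D side, 120 of them not marked as pseudogenes. Family 5 held ranks 1 to 62 and family 2 ranks 2 to 31. Family 10 held ranks 75 to 83, family 8 ranks 64 to 173 and family 1, with 92 segments, ranks 65 to 183. Of the 61 probe names 3 matched the table and 58 did not, the names on the array following an older numbering, so a probe was placed by its family and not by its own segment. Members of a family are similar in sequence and 1 probe may read several of them, so probes of a family were not counted as replicates of one another.

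Signals were taken on the log2 scale after background correction with negative controls and quantile normalization, and all levels and changes below are on that scale. Probes with a detection p under 0.05 on 3 or more of the 12 arrays were tested. Each tested probe was fitted with limma, null against wildtype, with Benjamini-Hochberg adjustment over all 17607 tested probes. A probe passed at an adjusted p under 0.05, and only such probes are said to have fallen. The labels put 6 separate samples in each group and say no more of their origin, so the p-values rest on the spread between those samples, which may be partly technical.

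The targeted gene followed the labels. The brightest Smchd1 probe had a mean of 5.05 ± 0.35 in null and 9.47 ± 0.14 in wildtype samples (SD, n = 6 each; log2 change -4.42, SE 0.14, adjusted p = 1.3e-09). Detection over the whole array overlapped between the groups, with 15654 to 16587 probes detected per null array and 15396 to 16434 per wildtype array. For the pre-B label, 13 of 14 listed pre-B markers had a probe, and 10 were detected on enough arrays to be tested. Among them Igll1, a surrogate light chain component of the pre-B receptor, stood at 7.14 to 11.44 in null and 8.62 to 9.70 in wildtype samples. Pax5 and Dntt were dim, Pax5 being detected on 3 null and 4 wildtype arrays and Dntt on 2 of each.

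Many Ighv probes gave no signal in either genotype. Of the 61 probes, 31 were detected on no array and 4 on 1 or 2 arrays, and these 35 untested probes had levels of 4.22 to 5.19. The remaining 26 were tested. They covered 14 of 38 probes of family 1, 2 of 2 of family 8, 2 of 2 of family 10, 1 of 3 of family 5, the single probes of families 9, 12 and 15, and 4 of the 8 IGH-V names. The single probes of families 2, 6, 7, 13 and 14 were not tested, so those numbered probes say nothing here of their families, and of family 5 only IGHV5S18 was measured. In family 1, 21 of the 24 untested probes were detected on no array.

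Fewer Ighv probes were detected on each null array than on most wildtype arrays. The null arrays 1 to 6 had 22, 24, 21, 17, 16 and 23 detected Ighv probes, against 26, 24, 25, 26, 25 and 25 on wildtype arrays 1 to 6. Only null 2, with 24, reached the lowest wildtype count, that of wildtype 2. The filter therefore leaned on wildtype signal for some probes. Of the 26 tested, 21 were detected on at least 3 arrays of each genotype, 4 on at least 3 wildtype but fewer than 3 null arrays (IGHV1S14, IGHV1S135, IGHV15S1 and IGH-V15), and 1 on fewer than 3 of each (IGHV9S5).

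Heavy-chain variable signal fell in null samples on probes of families 1 and 10 and on both IGH-VJ558 probes. Of the 26 tested probes 9 fell, where 0.687% of all tested probes fell, and 0 rose, where 0.534% of all tested probes rose (1.22% passed in either direction). The median change over the 26 probes was -0.93, against -0.04 over all tested probes. On 16 of the 26 probes every null sample lay below every wildtype sample, where this held for 1.63% of all tested probes. All 26 changes were negative, as were 58.2% of those of all tested probes, but those of IGHV9S5 (-0.02) and IGHV12S1 (-0.06) lay near 0. These counts hold the 4 probes that entered through wildtype signal. The filter did not favour 1 genotype for the 14 probes detected on all 12 arrays, where 5 fell, 12 had groups that did not overlap and the median change was -1.03. Of all 12803 probes detected on every array 80 fell and 232 had null wholly below wildtype, with a median of -0.04.

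**Figure D1:**
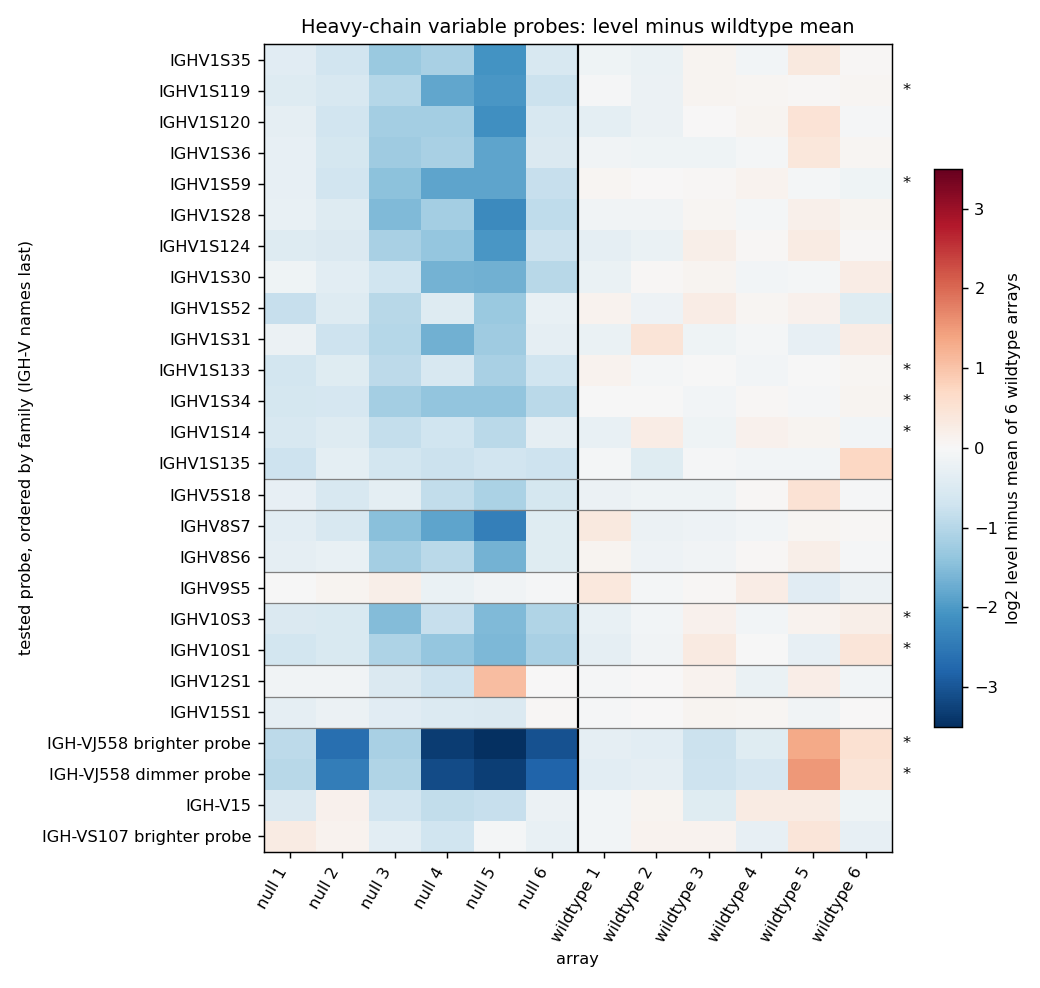
Level of each tested heavy-chain variable probe (26 probes, down the page by family) on each array (null 1 to 6, then wildtype 1 to 6), as log2 level minus the mean of the 6 wildtype arrays. Blue is lower and red is higher than that mean, and an asterisk marks the 9 probes with adjusted p under 0.05. Null 4 and null 5 are darkest in most lines, and IGHV12S1 is red in null 5.

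The largest differences were those of the IGH-VJ558 probes. J558 is an older name of family 1, the largest V family of the mouse. The brighter of the 2 IGH-VJ558 probes ranged from 7.35 in null 5 to 10.18 in null 1 with a median of 8.25 in null samples, and from 10.35 in wildtype 3 to 12.42 in wildtype 5 with a median of 10.75 in wildtype samples. No null sample reached the lowest wildtype sample, though null 1 and null 3 (9.95) came close to it. The means were 8.62 ± 1.17 in null and 11.09 ± 0.78 in wildtype samples (SD, n = 6 each), a log2 change of -2.47 (SE 0.50, 5.53-fold, adjusted p = 0.034). The dimmer probe had 5.85 ± 1.02 in null and 8.13 ± 0.85 in wildtype samples and fell by 2.28 (SE 0.47, adjusted p = 0.036). Both probes put the arrays in much the same order, with null 5 lowest and wildtype 5 highest. They had the widest spread between arrays of one genotype among the tested probes, the brighter in null and the dimmer in wildtype samples.

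On the numbered probes of family 1 the differences were smaller, with a median change of -0.98 over the 14 tested probes, of which 5 fell. IGHV1S34 ranged from 4.71 in null 5 to 5.51 in null 2 with a median of 5.04 in null samples, and from 6.02 to 6.21 with a median of 6.09 in wildtype samples. The wildtype samples sat within a narrow band and every null sample lay below it (log2 change -1.02, SE 0.14, adjusted p = 0.003). IGHV1S133 ranged from 4.84 in null 5 to 5.53 in null 2 with a median of 5.30 in null samples, and from 5.87 to 6.09 with a median of 5.95 in wildtype samples. The groups did not overlap (log2 change -0.73, SE 0.11, adjusted p = 0.005). These 2 probes had the smallest adjusted p of the 26, and their low spread in wildtype samples (SD 0.06 and 0.09) went with it. Both were dim in null samples, IGHV1S34 being detected on 4 of 6 null arrays and IGHV1S133 on 5 of 6. Null 3 to 6 on IGHV1S34 (4.71 to 5.16) lay within the 4.22 to 5.19 of the untested probes. So did null 3 (5.06) and null 5 (4.84) on IGHV1S133. The size of these 2 changes is therefore uncertain, and without background correction they were -0.37 and -0.26.

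IGHV1S119 and IGHV1S59 had changes of similar size with a wider spread among null samples. IGHV1S119 ranged from 7.33 in null 5 to 8.91 in null 1 with a median of 8.49 in null samples, and from 9.16 to 9.47 with a median of 9.42 in wildtype samples (log2 change -1.11, SE 0.25, adjusted p = 0.048). IGHV1S59 ranged from 5.71 in null 4 and null 5 to 7.29 in null 1 with a median of 6.44 in null samples, and from 7.41 to 7.68 with a median of 7.59 in wildtype samples (log2 change -1.15, SE 0.24, adjusted p = 0.038). In both probes null 4 and null 5 were the lowest null samples, with null 3 (6.12) next to them on IGHV1S59, and the groups did not overlap. The fifth probe of the family that fell, IGHV1S14, was dim: it was detected on 2 null and 6 wildtype arrays, with 4.82 ± 0.24 in null and 5.46 ± 0.19 in wildtype samples (SD, n = 6 each; log2 change -0.63, SE 0.12, adjusted p = 0.028).

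IGHV1S35, named as the numbered family 1 probe of highest signal, did not pass. It ranged from 7.56 in null 5 to 9.25 in null 1 with a median of 8.74 in null samples, and from 9.43 to 10 with a median of 9.63 in wildtype samples. The groups did not overlap, but the null samples were spread over a wide range (log2 change -1.03, SE 0.24, adjusted p = 0.056). The other 8 family 1 probes that did not pass resembled it. With IGHV1S35, these 9 probes had changes of -1.09 to -0.64 with adjusted p-values of 0.052 to 0.084, and 4 of the 9 had groups that did not overlap. IGHV1S135 was detected on 0 null and 5 wildtype arrays, so its difference is a bound: at least 1.23-fold lower in null samples, set against the lowest detected signals of the null arrays (adjusted p = 0.061).

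**Figure D2:**
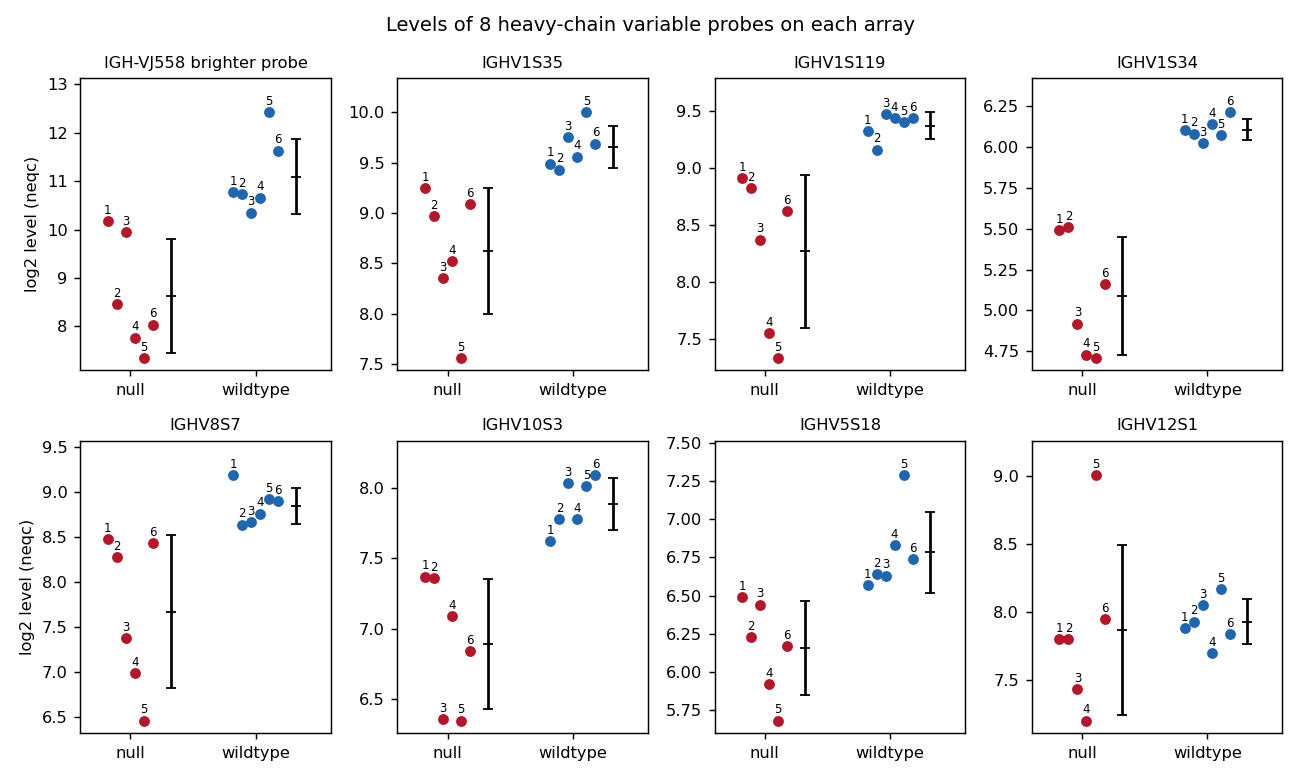
Log2 level of 8 heavy-chain variable probes on each array, null samples at the left and wildtype samples at the right of each panel, with points numbered by replicate and a bar for the mean ± SD of 6 arrays. Panels have separate vertical axes that do not start at 0. The groups do not overlap in any panel except that of IGHV12S1, where null 5 (9.01) is the highest array.

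Family 10, a small family among the first family 1 segments on the D side, fell on both of its probes. IGHV10S3 ranged from 6.35 in null 5 to 7.37 in null 1 with a median of 6.96 in null samples, and from 7.62 to 8.09 with a median of 7.90 in wildtype samples (log2 change -0.99, SE 0.19, adjusted p = 0.024). IGHV10S1 ranged from 5.12 in null 5 to 6.16 in null 2 with a median of 5.6 in null samples, and from 6.38 to 7.14 with a median of 6.64 in wildtype samples (log2 change -1.06, SE 0.19, adjusted p = 0.019). Neither probe had overlapping groups, and both were detected on all 12 arrays.

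Family 8, which lies among family 1 in the distal array, did not pass on either probe. IGHV8S7 ranged from 6.46 in null 5 to 8.48 in null 1 with a median of 7.83 in null samples, and from 8.64 to 9.19 with a median of 8.83 in wildtype samples (log2 change -1.18, SE 0.31, adjusted p = 0.083). Null 1, null 2 and null 6 lay just under the wildtype samples and the other 3 far under them. IGHV8S6 had 7.53 ± 0.57 in null and 8.33 ± 0.14 in wildtype samples (SD, n = 6 each; log2 change -0.80, SE 0.21, adjusted p = 0.084), again without overlap.

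IGHV5S18, the single tested probe of a proximal family, ranged from 5.68 in null 5 to 6.49 in null 1 with a median of 6.20 in null samples, and from 6.57 in wildtype 1 to 7.29 in wildtype 5 with a median of 6.69 in wildtype samples. The groups did not overlap, with null 1 and null 3 (6.44) just under the lowest wildtype sample (log2 change -0.63, SE 0.15, adjusted p = 0.067). It passed with BeadChip as a block (adjusted p = 0.020) and without null 1, but in no other alternative fit. With the replicate block it had an adjusted p of 0.18, and with median scaling 0.28. By place in the locus, 5 of 16 tested distal probes fell with a median change of -0.98. The 2 IGH-VJ558 probes, which also fell, carry no family number and are not among these 16. Of the 4 tested probes of families counted as intermediate (9, 10 and 12), 2 fell, with a median of -0.53, and 0 of 1 proximal probe fell. Both that fell belong to family 10, whose ranks lie inside the span of families 1 and 8, so the split between intermediate and distal depends on where it is put. Whether distal and proximal families differ was not tested, since 1 proximal probe gives no spread.

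IGHV12S1 followed another pattern. Family 12 is a very small family, known for its use by B-1 cells that bind phosphatidylcholine. The probe ranged from 7.20 in null 4 to 9.01 in null 5 with a median of 7.80 in null samples, and from 7.70 to 8.17 with a median of 7.91 in wildtype samples. The groups overlapped (log2 change -0.06, SE 0.24, adjusted p = 0.91). Null 5, the lowest null array on most Ighv probes, was here the highest of all 12 arrays. On IGHV12S1 it lay 1.21 above the median of the other 5 null arrays, and its difference from that median was -1.41 on IGHV1S35, -1.82 on IGHV8S7 and -0.74 on IGHV10S3. The high value is that of 1 array and was not tested.

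The remaining tested probes were dim and did not pass. IGHV15S1, of a family at ranks 52 to 85, had 4.73 ± 0.22 in null and 5.04 ± 0.08 in wildtype samples (SD, n = 6 each; log2 change -0.31, SE 0.10, adjusted p = 0.14) and was detected on 1 null and 6 wildtype arrays. IGHV9S5 had 4.87 ± 0.16 in null and 4.89 ± 0.28 in wildtype samples and was detected on 2 arrays of each genotype (log2 change -0.02, adjusted p = 0.95). Among the older names, IGH-V15 had a change of -0.49 (adjusted p = 0.18), and the brighter of 2 probes for IGH-VS107, S107 being an older name of family 7, had a change of -0.17 (adjusted p = 0.63). No direction is read from these 4 probes singly, though the count of 26 negative changes includes them.

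**Figure D3:**
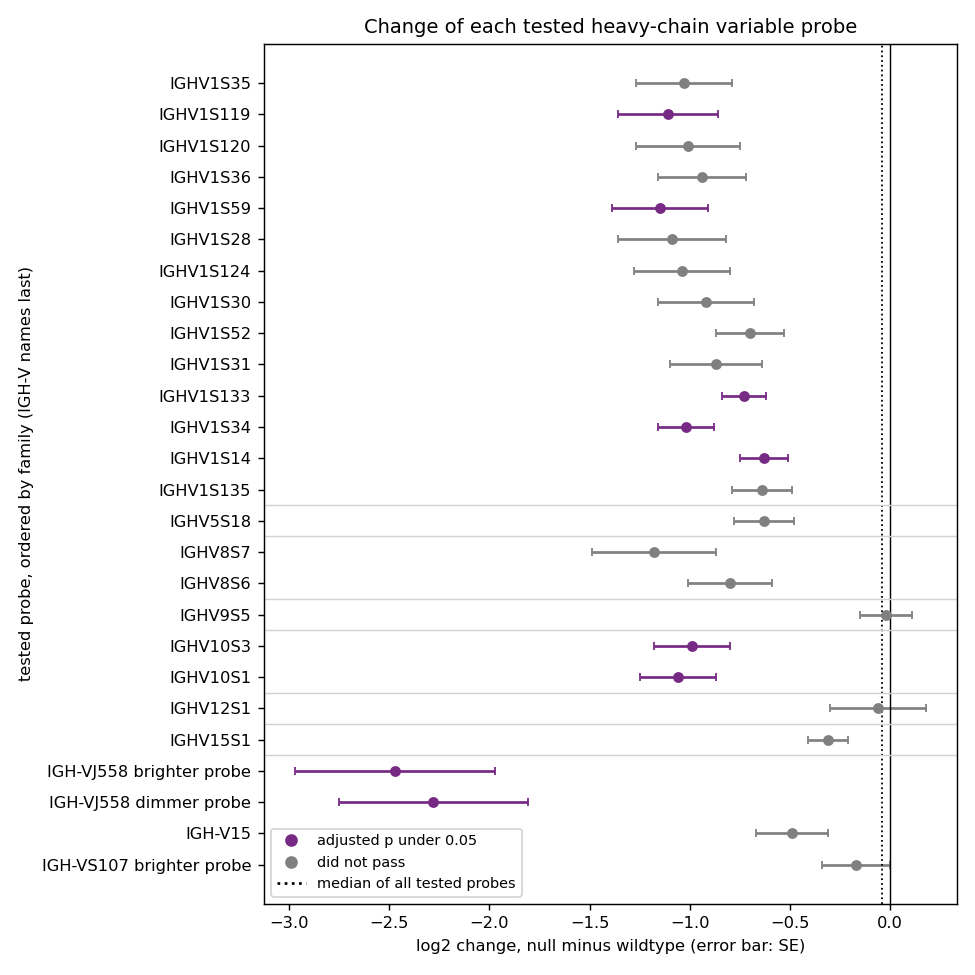
Log2 change, null minus wildtype, of each of the 26 tested heavy-chain variable probes, by family down the page, with SE bars from the limma fit. Purple points passed at adjusted p under 0.05, and the dotted line is the median of all tested probes (-0.04). The 2 IGH-VJ558 probes lie farthest to the left, and IGHV9S5, IGHV12S1 and the brighter IGH-VS107 probe lie near 0.

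The calls depended on which arrays were in the fit. Those of IGHV1S34 and IGHV1S133 held with any 1 of the 12 arrays left out. That of IGHV10S1 was lost without wildtype 3, 4 or 6 (adjusted p 0.051 to 0.056) and that of IGHV10S3 without wildtype 2, 3, 4 or 6 (0.051 to 0.067). IGHV1S14 lost its call without null 3 or any of wildtype 2 to 6 (0.053 to 0.080), and IGHV1S119 and IGHV1S59 without null 3, null 4, null 6 or any 1 wildtype array (up to 0.11 and 0.098). The brighter IGH-VJ558 probe lost it without null 4, null 6 or any 1 wildtype array (0.055 to 0.089), and the dimmer one also without null 5 (0.051 to 0.092). The number of Ighv probes that fell, 9 with all arrays, was 18 without null 1, 14 without null 2, 5 without null 4, null 6 or wildtype 1, 3 without wildtype 2, 4 without wildtype 5, and 2 without wildtype 3, wildtype 4 or wildtype 6. Over all tested probes the number that fell moved as well, between 28 and 189, against 121 with all arrays.

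Both BeadChips gave negative median changes. Among the 26 probes the median was -1.08 on BeadChip 1, which held null 4, 5 and 6, and -0.74 on BeadChip 2, which held null 1, 2 and 3, against -0.06 and -0.01 over all tested probes. With 3 arrays a genotype few probes passed: the 2 IGH-VJ558 probes on BeadChip 1, where 0.0284% of all tested probes fell, and 0 of 26 on BeadChip 2, where 0.0568% did and 22 of the 26 were lower at an unadjusted p under 0.05 in limma, against 5.75% of all tested probes. On BeadChip 1 alone, IGHV1S34 had a change of -1.20 (adjusted p = 0.097), and on BeadChip 2 alone -0.83 (adjusted p = 0.16). With BeadChip as a block in the fit of all 12 arrays 15 of the 26 fell, against 1% of all tested probes.

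The null samples also differed more among themselves. The median SD over 6 arrays was 0.57 in null and 0.21 in wildtype samples for the 26 Ighv probes, against 0.23 in null and 0.16 in wildtype samples for all tested probes. The null SD was the larger on 24 of 26 probes (92.3%), where this held for 74.2% of all tested probes. In family 1 the median SD was 0.59 in null and 0.20 in wildtype samples, in family 8 it was 0.71 and 0.17, and in family 10 it was 0.43 and 0.25. IGHV12S1 had an SD of 0.63 in null and 0.17 in wildtype samples without a shift in the mean.

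**Figure D4:**
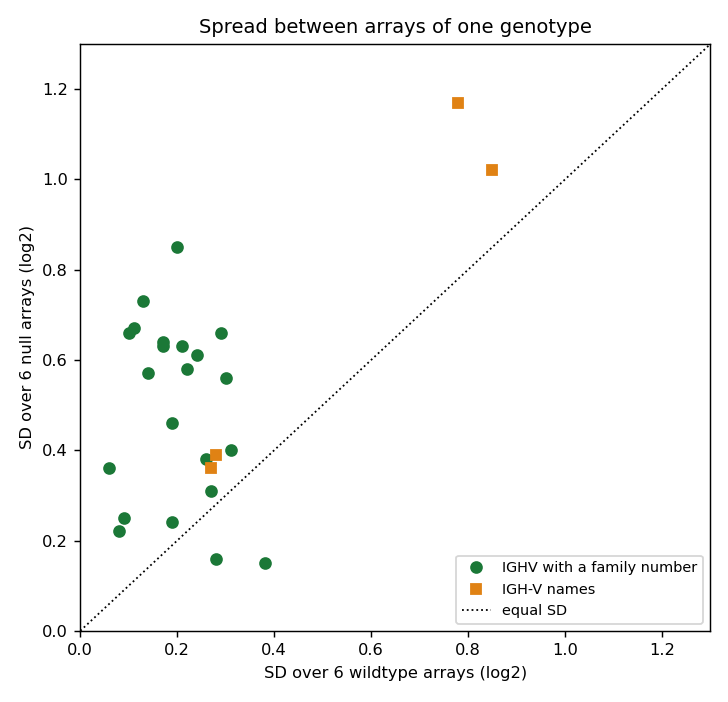
SD of the log2 level over the 6 null arrays (vertical) against the SD over the 6 wildtype arrays (horizontal) for each of the 26 tested heavy-chain variable probes, with a dotted line of equal SD. Of these points 24 lie above the line. The 2 IGH-VJ558 probes have the largest SD in both groups and lie far from the rest in the wildtype direction.

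The spread among null samples ran the same way on most probes. Null 5 was the lowest null array on 20 of the 26 probes and null 4 on the other 6, while null 1 was the highest null array on 15. Averaged over the 26 probes, null 1 to 6 lay at -0.42, -0.58, -0.95, -1.24, -1.47 and -0.73 relative to the wildtype mean, and wildtype 1 to 6 between -0.10 and 0.20. All 6 null averages lay below all 6 wildtype averages. Wildtype 5, the highest wildtype array on 11 probes, had the average of 0.20.

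Genes of other cell types moved with some of these arrays. At an unadjusted p under 0.05, the measure given for the marker lists below, 18.1% of all tested probes would pass in either direction. Of the 6 tested plasmacytoid dendritic markers of 7 listed, 0 passed in limma, 3 had an unadjusted p under 0.05 and 6 had positive changes. Their average relative to the wildtype mean was 2.69 in null 5, 1.89 in null 6 and 1.05 in null 3, between -0.10 and 0.35 in the other null samples, and between -0.47 and 0.70 in wildtype samples. Of 10 tested T and NK markers of 13 listed 0 passed and 8 had an unadjusted p under 0.05. Their averages were 1.64 in null 5, 1.32 in null 3 and 1.04 in null 6, 0.12 to 0.26 in the other null samples, and -0.17 to 0.17 in wildtype samples. Of 10 tested myeloid markers of 14 listed 0 passed and 0 had an unadjusted p under 0.05. Their average was 3.49 in null 3, -0.52 to 0.50 in the other null samples and -0.51 to 0.41 in wildtype samples. The 5 tested plasma cell markers of 9, 0 of which passed and 4 of which had an unadjusted p under 0.05, averaged 0.09 to 0.77 in null, highest in null 5, and -0.09 to 0.06 in wildtype samples. The 4 tested erythroid markers of 7, 0 of which passed with or without adjustment, averaged -1.16 to 1.5 in null and -0.35 to 0.74 in wildtype samples. Siglech, a defining plasmacytoid dendritic gene, and the myeloid granule genes Ngp, Camp and Mpo were detected on all 12 arrays, as were 6 of the 10 T and NK markers. The T cell receptor genes Cd3d, Cd3e and Cd3g were detected on 4, 3 and 4 null arrays and on 3, 0 and 1 wildtype arrays. The part of other cell types in the Ighv result was not tested. Null 1 and null 2, whose plasmacytoid dendritic, T and NK and myeloid averages were at most 0.47, had Ighv averages of -0.42 and -0.58. Null 4, whose 3 averages were also under 0.47, had an Ighv average of -1.24. With null 3 and null 5 left out the median Ighv change was -0.69 and 6 of 26 probes fell, against 0.471% of all tested probes. With null 3, 4, 5 and 6 left out it was -0.48 and 2 of 26 fell, IGHV1S34 and IGHV1S133, against 0.312%. The null arrays kept in that fit, null 1 and null 2 alone, had the highest Ighv averages of the null arrays. A smaller median change therefore follows from the choice of arrays. With the myeloid and plasmacytoid dendritic averages as covariates, an alternative chosen after seeing the data, the median was -0.64 and IGHV1S34 alone of the 26 fell, against 0.131% of all tested probes.

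The levels of B-lineage genes did not all follow the Ighv order. The 10 tested pre-B markers of 14 listed, 0 of which passed and 3 of which had an unadjusted p under 0.05 (18.1% of all tested probes had), averaged -1.26 in null 5, which was lowest, but 0.56 in null 4, which had the second lowest Ighv average. In null 4, Igll1 stood at 11.44, the highest value of all 12 arrays, and the plasmacytoid dendritic average was 0.35. The 5 tested immature and mature B markers of 8, 0 of which passed and 1 of which had an unadjusted p under 0.05, averaged -0.79 to 0.20 in null and -0.14 to 0.16 in wildtype samples.

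**Figure D5:**
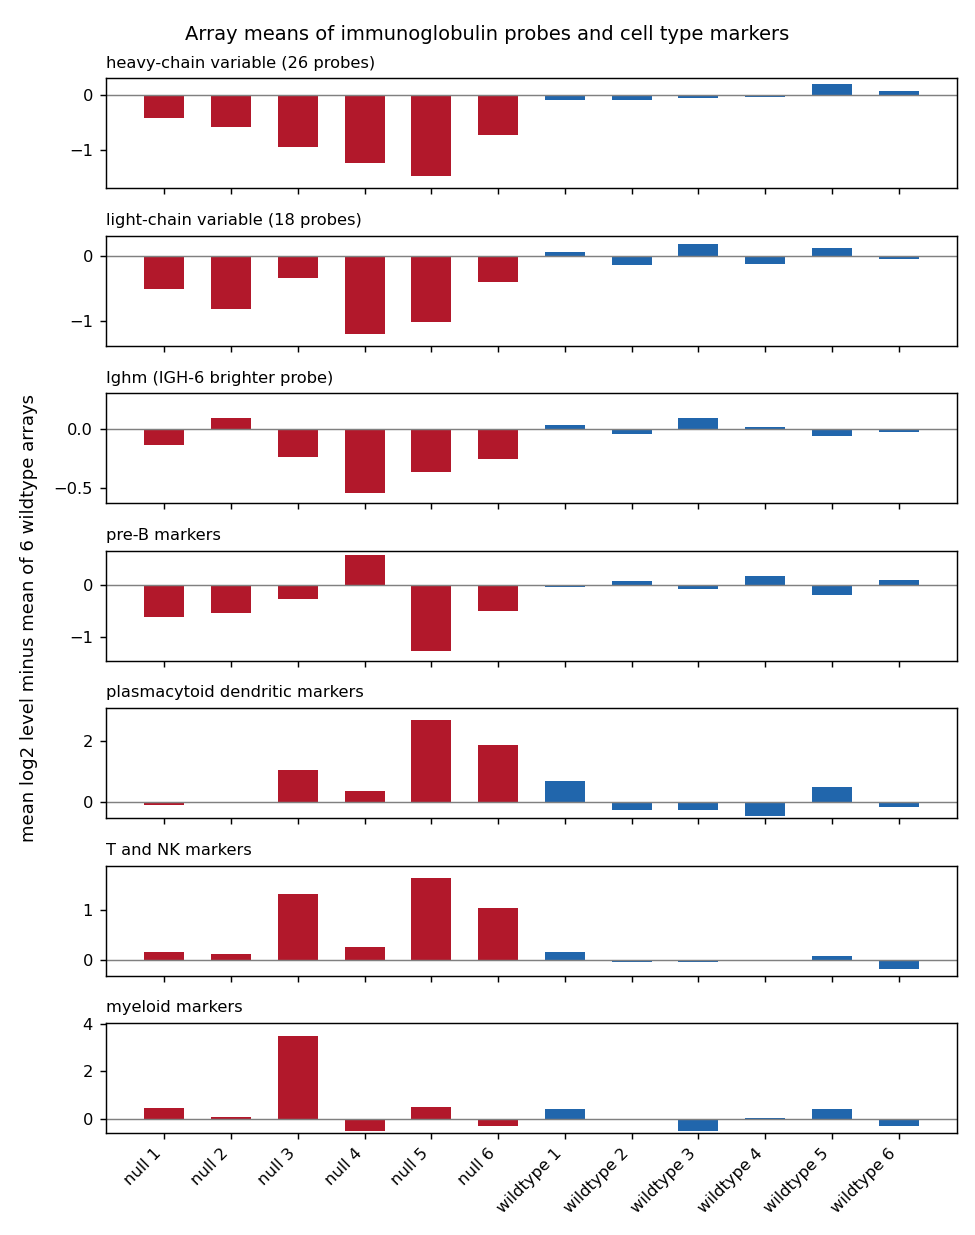
Mean log2 level relative to the mean of the 6 wildtype arrays, for each array, of the tested heavy-chain and light-chain variable probes, the brighter Ighm probe and 4 marker lists (bars start at 0, null in red at the left, wildtype in blue at the right, vertical scales differ). The heavy-chain bars are below 0 on all 6 null arrays, while the plasmacytoid dendritic and T and NK bars are high on null 3, 5 and 6 and the myeloid bar on null 3 alone.

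No tested probe of the heavy-chain constant regions passed. Ighm, the mu constant region that every pre-B cell transcribes with its V segment, ranged on its brighter probe (IGH-6) from 13.36 in null 4 to 14 in null 2 with a median of 13.66 in null samples, and from 13.85 to 14 with a median of 13.90 in wildtype samples. The groups overlapped (log2 change -0.24, SE 0.10, adjusted p = 0.21), and the dimmer probe had a change of -0.30 (adjusted p = 0.11). Both Ighm probes were brighter on every array than any tested Ighv probe. Whether a change of equal size reads alike at such levels was not tested. The brighter IGHG probe, for the switched gamma constant region, had a change of -0.51 (adjusted p = 0.32), the dimmer one -1.02 (SE 0.58, adjusted p = 0.36), and IGHA, for the alpha region, -0.22 (adjusted p = 0.35). Of the 7 other probes of the heavy-chain locus 5 were tested, 0 fell, 2 had an unadjusted p under 0.05, and the median change was -0.30. With the Ighm level of each array as a covariate, chosen after seeing the data, the median Ighv change was -0.57 and 0 of 26 probes fell, 15 being lower at an unadjusted p under 0.05 in limma, against 0.0454% and 2.79% of all tested probes.

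Light-chain variable probes, read from other chromosomes and rearranged later than the heavy chain, gave a comparison with the same kind of gene. Of 29 light-chain variable probes 18 were tested and 4 fell, where 0.687% of all tested probes fell. The median change was -0.58, and all 18 changes were negative, as were 58.2% of those of all tested probes. Every null sample lay below every wildtype sample on 4 of these 18 (22.2%). This held for 16 of the 26 heavy-chain probes (61.5%) and for 1.63% of all tested probes. The light-chain counts, too, hold probes that entered through wildtype signal. Among the 4 that fell, and also among the 4 without overlap, was a probe detected on 0 null and 6 wildtype arrays. Both probes for the name IGK-V5 were among the 4 that fell. The light-chain averages in null 1 to 6 were -0.51, -0.82, -0.34, -1.20, -1.02 and -0.40. Null 4 and null 5 were thus lowest for both chains. Null 3 was the highest null sample for light chains but the third lowest for heavy chains. Whether the chains differ was not tested.

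Of 15 listed genes of V to DJ recombination 10 were tested, 1 fell and 0 rose, with a median change of -0.11. Over all tested probes 0.687% fell and 0.534% rose. An unadjusted p under 0.05 in limma was found for 3 of the 10, against 18.1% of all tested probes. The one that fell was Lig4, the DNA ligase that seals coding joints, at 5.56 to 6.44 in null and 6.54 to 6.99 in wildtype samples (log2 change -0.66, SE 0.14, adjusted p = 0.041). Rag1, a subunit of the recombinase, had a change of -0.92 (adjusted p = 0.12), with 6.12 in null 5 and 8.43 in null 4, so the 2 null samples with the lowest Ighv averages had the lowest and the highest null Rag1 level. Xrcc6, which binds DNA ends, had a change of -0.32 (adjusted p = 0.13) and Hmgb2, a cofactor of RAG cutting, -0.20 (adjusted p = 0.29).

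Of 12 genes listed for distal V usage and locus contraction 10 were tested and 0 passed in limma, and the median change was -0.32. An unadjusted p under 0.05 was found for 7 of the 10, of which 5 were lower and 2 higher in null, against 18.1% of all tested probes. Ikzf1, a zinc finger factor needed for contraction, had a change of -0.39 (adjusted p = 0.077), with 9.49 to 10 in null and 10.05 to 10.32 in wildtype samples and no overlap. Il7r, the interleukin 7 receptor alpha chain, had a change of -0.99 (adjusted p = 0.10), with 6.57 in null 5, 8.86 in null 4 and 8.42 to 8.65 in wildtype samples. Stat5a, which acts downstream of that receptor, had a change of 0.36 (adjusted p = 0.14), and Bcl11a, a factor of early B cell development, 0.45 (adjusted p = 0.18).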

How the data were processed

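Total RNA from 12 samples of sorted cells was labelled as biotin cRNA and hybridised to BeadChip arrays, per the labels' protocols. The deposited tables hold the mean bead intensity of each probe on a linear scale, the SD of the bead intensities, a bead count, and a detection score that is a fraction, with negative controls in a separate table, per the file headers. A further deposited table holds the authors' log2 values and detection p-values. BeadStudio, R 2.15.1 and limma 3.12.1 are listed per the submitters' processing notes, and GenomeStudio 1.8.0 per the file headers; none of these sources gives a genome build.

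Here the deposited intensity values were corrected against 936 negative controls, and quantile normalized on the log2 scale with an offset of 16 (neqc, limma 3.58.1, R 4.3.3). The result differs from the authors' deposited log2 values by at most 5e-09. Probes with detection p under 0.05 on at least 3 of 12 arrays were tested, 17607 in all, and 27674 were left out. Each was fitted with lmFit and eBayes without covariates, with Benjamini-Hochberg adjustment over these 17607. Bounds use, for an array where a probe was not detected, the lowest signal among detected probes. The number of arrays limits the precision of each value.

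Groups, replicate numbers and BeadChips came from the labels. The members, gene lists and alternatives were chosen with earlier results of these data known. Named were, per family, the brightest tested probe and all that passed, with 1 probe per name, all tested IGH-V names, the probes of widest spread and those with 1 outlying array. Also named were the brightest tested probe of each other heavy-chain gene and up to 4 genes of smallest p from the V to DJ recombination and the distal V usage lists. Of the pre-B, immature and mature B, plasma cell, T and NK, plasmacytoid dendritic, myeloid and erythroid lists counts and averages are given. Igll1, Siglech, Ngp, Camp, Mpo, Cd3d, Cd3e, Cd3g and IGHV8S6 are outside this rule, their values having been seen first.

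For null against wildtype, the fit was checked on simulated levels of 17607 probes. It recovered 53.7% of 67 probes shifted by 0.5 log2, 91% of 67 shifted by 1 and 100% of 66 shifted by 2, and called 11 unshifted ones. The simulated levels had the same spread in both groups and were independent between probes, and the shifted probes were drawn from the whole array. The Ighv probes had a median SD of 0.57 in null and 0.21 in wildtype samples, so these shares do not give the recovery for them. Alternatives were other background corrections and normalizations, other filters, blocks, single BeadChips, array weights, another prior, arrays left out, covariates and other choices of probes.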

Additional observations from a re-analysis of the deposited data

Results flagged for a closer look

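On 3 probes 1 array lay far from the 5 others of its genotype, its gap to the nearest of them passing Dixon's critical value for 6 samples. This held in 4 of 52 groups of 6, and chance alone gives it in about 1 in 20 groups. IGHV1S135 was affected in both groups: null 2 stood at 4.88, with the other null samples at 4.49 to 4.60, and wildtype 6 stood at 5.95, with the other wildtype samples at 4.81 to 5.20. The null value is that of a probe detected on 0 null arrays. IGHV1S36, a bright family 1 probe, stood at 9.31 in wildtype 5, with the other wildtype samples at 8.75 to 8.96. IGHV5S18 stood at 7.29 in wildtype 5, with the other wildtype samples at 6.57 to 6.83. Without null 2 or with BeadChip as a block IGHV1S135 passed, at a lowest adjusted p of 0.044. In IGHV12S1 the high value of null 5, 9.01, did not pass this limit.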

How the results depend on the processing

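The number of Ighv probes that rose was 0 in every alternative run, and none of the 26 single-probe changes was both called and turned in sign. Of 700 single-probe values under alternatives 684 were negative, 113 lost a call and 32 gained one. The values that were not negative belonged to IGHV9S5 (10), IGHV12S1 (3) and the brighter IGH-VS107 probe (3), none of which passed. The count of Ighv probes that fell, 9, was 5 with median scaling, 2 without a filter, 15 with BeadChip as a block, 2 on BeadChip 1 alone, 0 on BeadChip 2 alone and 2 without null 3, 4, 5 and 6. It was 0 with the Ighm level and 1 with the myeloid and plasmacytoid dendritic averages as covariates, both chosen after seeing the data. In these 2 fits 8 and 23 of all tested probes fell, against 121 without covariates. Leaving out 1 array in turn gave 2 to 18 Ighv probes that fell. With median scaling 33 probes of the whole array fell and 59 rose, against 121 and 94.

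Samples of the 2 genotypes share replicate numbers, and the labels do not say whether a number marks a pair. Deviations of same-numbered samples correlated at -0.29 to 0.08, over 0.1 in 0 of 6 pairs, and 0 of 6 samples matched its own number best. Every same-numbered pair was split between the 2 BeadChips, so these correlations cannot decide whether the numbers mark pairs. The fit with the replicate block called 2 Ighv probes lower. Over all tested probes it called 40 lower, against 121 without the block.

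The median change of the Ighv probes, -0.93, was -0.44 without background correction, -0.07 without a filter (all 61 probes), -0.48 without null 3 to 6 and -0.57 with the Ighm covariate. For family 1 these were -0.48, -0.05, -0.50 and -0.60. Family 10 moved to -0.56 without background correction, -0.56 without null 3 to 6 and -0.69 with the marker averages as covariates, and family 8 to -0.37 without null 3 to 6. With 1 array left out the median lay between -1.07 and -0.78, that of family 1 between -1.09 and -0.79, of family 8 between -1.12 and -0.78, and of family 10 between -1.12 and -0.92.

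The median SD of null samples, 0.57, was 0.25 without background correction, 0.12 without a filter, 0.36 on BeadChip 2, 0.36 without null 3 and 5, and 0.14 without null 3 to 6, and lay between 0.39 and 0.61 with 1 array left out. That of wildtype samples, 0.21, was 0.12 without background correction, 0.10 without a filter, and 0.19 to 0.23 with 1 array left out. Without a filter the 35 undetected or barely detected probes enter the medians. Without null 3 to 6, the SD and the median change rest on null 1 and null 2 alone, the null arrays with the highest Ighv averages. The causes of the other shifts were not tested.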
